A study of Mus musculus with 6 samples.

Results

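The 49 genes described here make the proteins that copy DNA and supply S phase, among 49315 genes in a table of RNA abundance from mouse embryonic fibroblasts. They were taken by gene name from a list chosen with earlier results of these data known. It covered origin licensing, the replicative helicase, the sliding clamp and its loader, polymerases, nucleotide supply, chromatin copying and cyclin E. Counts of members set beside shares of all genes are therefore description, not a test of the list. All 49 names were found once each, and all 49 were among the 14818 genes tested. Mouse embryonic fibroblasts are primary mesenchymal cells grown out of whole embryos, here at E13.5, in medium with serum. The series compared cells with 1 R206H allele of Acvr1 (Acvr1R206H/+, labelled FOP mutant) with wild-type cells (Acvr1+/+), with 3 libraries of each genotype, biological replicates by the design text. Acvr1 encodes a receptor for bone morphogenetic proteins, and R206H is the classical change in fibrodysplasia ossificans progressiva, a disease of bone formation in soft tissue. Cells of both genotypes were lysed for RNA at passage 0, cultured for 2 days, and the labels name no drug, ligand or other allele. They give no embryo, litter or sex for a library, so p-values measure the spread between these libraries.

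Cells license replication origins before S phase: the origin recognition complex, with Cdc6 and Cdt1, loads the Mcm2 to Mcm7 ring onto DNA. Cyclin E with its kinase then helps to turn the loaded ring into an active helicase by adding Cdc45 and the GINS complex, and polymerases held by the Pcna clamp copy both strands. Transcription of many of these genes is tied to the cell cycle through E2F factors, so their RNA in a culture is commonly read together with the number of cycling cells. In bulk RNA, fewer cells in S phase and less RNA per cell cannot be told apart.

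Values were TPM (transcripts per 1000000), which are scaled per gene length and per library. Depth, estimated from the step between low values, was 17800000 to 21700000 reads in R206H libraries and 17500000 to 24600000 in wild-type libraries. The lowest member count was 111 reads, for Gins3. Fibroblast markers were high, with 11265 to 13995 summed TPM over 12 markers in R206H libraries and 7443 to 9608 in wild-type libraries. Of 18 epithelial markers, 14 were tested, 2 passed the adjusted threshold, both lower in R206H, and none was at 0 in all libraries. These were Cldn3, a tight junction gene, which had 2.17, 2 and 2.23 TPM in R206H libraries 1, 2 and 3, against 12.5, 7.63 and 10.7 TPM in wild-type libraries 1, 2 and 3 (log2 change -1.82, SE 0.182, limma adjusted p = 0.0272), and Epcam, an epithelial adhesion gene, which averaged 0.904 ± 0.0582 TPM in R206H against 4.52 ± 1.87 TPM in wild type (SD, n = 3 each) (log2 change -1.49, SE 0.253, limma adjusted p = 0.0476). Cldn3 was not called without R206H library 2, R206H library 3 or wild-type library 3 (limma adjusted p of 0.0641 to 0.152). Epcam was not called without those or without wild-type library 2 (0.102 to 0.152). With no filter on low values neither was called (0.0794 for Cldn3 and 0.11 for Epcam), nor was Epcam in limma without the trend (0.0775). Epcam was also not called with a pseudocount, the value added to TPM before the log, of 5 (0.0565). All 14 tested epithelial markers were below 0 in log2 change, with a median of -1.44. At an unadjusted limma p under 0.05, 12 were lower, where 11.7% of all genes tested were. Over the epithelial list, summed TPM was 202 to 412 in R206H libraries and 559 to 669 in wild-type libraries. Of 8 neural markers, all tested, 2 were called higher, Prph at a log2 change of 1.57 (limma adjusted p = 0.0272) and Tubb3 at 1.19 (0.0454), and 1 was called lower, Sox10 at -1.10 (0.0476), with summed TPM of 277 to 418 in R206H libraries and 413 to 488 in wild-type libraries. These 3 were not called without R206H library 2, R206H library 3, wild-type library 2 or wild-type library 3. Their limma adjusted p was then 0.0641 to 0.152 for Prph, 0.0946 to 0.152 for Tubb3 and 0.104 to 0.167 for Sox10. Sox10 was also not called without wild-type library 1 (0.0613). With no filter on low values the adjusted p was 0.089 for Prph, 0.108 for Tubb3 and 0.11 for Sox10. In limma without the trend it was 0.0804 for Tubb3 and 0.0888 for Sox10, while Prph stayed called (0.0119). Sox10 was also just above the threshold with a pseudocount of 0.1 (0.0504) and with quantile normalization (0.0512). Over all 14818 genes tested, limma called 186 higher and 117 lower. Of 9 endothelial markers, 6 were tested, all below 0 with a median of -0.39, and none passed the adjusted threshold; their summed TPM was 16.3 to 21.1 in R206H libraries and 20.3 to 45.1 in wild-type libraries. Skeletal muscle markers, 9 of 12 tested and none called, summed to 931, 618 and 498 TPM in R206H libraries 1, 2 and 3. In wild-type libraries they summed to 612 to 821 TPM. Macrophage markers, 10 of 11 tested and none called, summed to 62.8 to 143 TPM in R206H libraries and 73.2 to 108 TPM in wild-type libraries. The share of TPM from the mitochondrial genome was 3.43% to 3.85% in R206H libraries and 4.16% to 4.57% in wild-type libraries. The part of this difference in makeup in the values below was not tested. Wild-type library 1 had the lowest wild-type value for 32 of the 49 members and the highest epithelial marker level of the 6 libraries.

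Replication genes were slightly and widely lower in the R206H libraries, with 46 of 49 members below 0 in log2 change. Of all genes tested, 46.4% were below 0. Ratios of mean TPM, R206H over wild type, ran from 0.65 for Ccne2 to 1.04 for Rfc4. No member passed the limma test at a Benjamini-Hochberg adjusted p of 0.05, where 0.79% of all genes tested were called lower. At an unadjusted p under 0.05 there were 26 members, all lower, which is 26 of 49 where 11.7% of all genes tested were lower at that p. All 3 R206H libraries lay below all 3 wild-type libraries for 29 members, where this held for 15% of genes tested, and no member had the opposite pattern, which held for 17.9%. The members were read in the same libraries and can rise and fall together, so these counts do not weigh as separate results. The median log2 change, R206H minus wild type on log2(TPM + 1), was -0.18 for the members and 0.02 for all genes tested. Without wild-type library 1, 31 members were lower at an unadjusted p under 0.05, where 10.4% of all genes tested were. Without wild-type library 3 there were 17, where 7.6% of all genes tested were lower. No member was called in either fit. A fit on reads rebuilt from TPM (limma voom) called 7 members, all lower, where it called 4.08% of all genes lower. These were Mcm3, Mcm5, Mcm10, Pcna, Pola2, Ccne1 and Ccne2. With library weights 16 were called, all lower, where 5.29% of all genes were, and at a looser adjusted p of 0.10 there were 15, where 5.16% of all genes were lower. The members together took 0.293%, 0.282% and 0.282% of TPM in R206H libraries 1, 2 and 3, against 0.309%, 0.33% and 0.337% in wild-type libraries 1, 2 and 3.

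**Figure D1:**
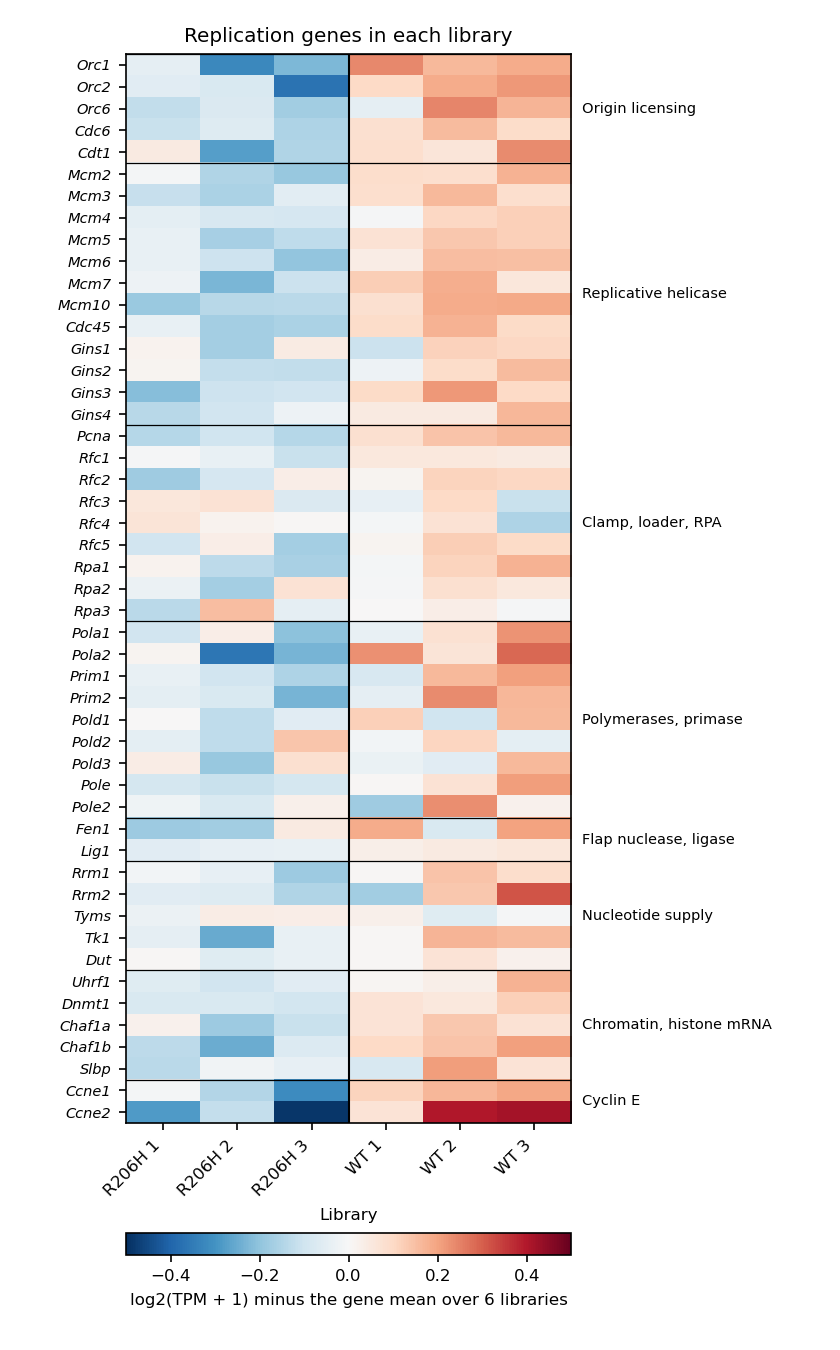
Each row is a member, grouped by role, and each column a library, with R206H libraries left of wild type; colour gives log2(TPM + 1) minus the gene's mean over the 6 libraries, and values beyond 0.5 either way take the end colour. Most R206H cells are blue and most wild-type cells red, with wild-type library 1 paler than the other wild-type libraries.

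Promoter sequence was not used to choose the members. RefSeq promoters (build GRCm38.p6, from 250 bases before to 50 after each start) were listed for 41 of the 49 members, as 50 promoters. The E2F-type letters TTTCCCGC, TTTCGCGC, TTTGCCGC or TTTGGCGC, sought on both strands with overlaps counted, were present in 16 of these 50 promoters, or 32%, against 2.27% of all 32851 promoters listed. The box CCAAT, sought the same way, was in 60% of member promoters against 37.4% of all. In promoters of the other replication genes described further on, the E2F-type letters were in 27.8% and CCAAT in 38.9%, the latter near the share of all promoters. In promoters of G2 and mitosis genes, the E2F-type letters were in 3.85% and CCAAT in 73.1%. In the 250 bases before the start alone, 10 of the 50 promoters had E2F-type letters, or 20%, against 1.86% of all promoters. Of 23 E2F-type matches in member promoters, 13 began before the start. The stretches below lie just before the start site of members whose values follow. They were picked among members with a match there, so they do not show the placement of the other matches. Capitals mark the letters, which overlap into 1 longer run where 2 matches overlap, as in Mcm5 and Mcm6.
Mcm6: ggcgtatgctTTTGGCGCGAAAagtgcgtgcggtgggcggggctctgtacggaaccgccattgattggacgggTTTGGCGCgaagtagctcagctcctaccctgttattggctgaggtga
Mcm5: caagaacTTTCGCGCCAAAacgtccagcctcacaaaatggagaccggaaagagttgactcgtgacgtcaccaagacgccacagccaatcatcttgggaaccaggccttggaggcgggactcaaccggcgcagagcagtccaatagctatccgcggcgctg
Orc1: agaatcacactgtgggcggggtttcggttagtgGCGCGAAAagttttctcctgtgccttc
Cdc6: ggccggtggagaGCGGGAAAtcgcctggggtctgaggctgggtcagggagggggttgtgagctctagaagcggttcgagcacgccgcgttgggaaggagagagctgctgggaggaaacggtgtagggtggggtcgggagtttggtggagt
Gins3: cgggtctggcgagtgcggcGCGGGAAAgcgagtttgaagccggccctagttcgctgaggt
Pola1: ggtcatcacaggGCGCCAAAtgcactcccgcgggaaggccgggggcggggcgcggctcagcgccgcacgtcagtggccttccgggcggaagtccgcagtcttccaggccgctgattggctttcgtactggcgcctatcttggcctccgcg
These stretches are chr1:128359706-128359825 (minus strand) for Mcm6, chr8:75109349-75109508 (plus strand) for Mcm5 and chr4:108579394-108579453 (plus strand) for Orc1. Those of Cdc6, Gins3 and Pola1 are chr11:98908001-98908150 (plus strand), chr8:95633499-95633558 (plus strand) and chrX:93632156-93632305 (minus strand). The match nearest its start site among these 6 is that of Orc1, whose first base is 27 bases before the start. The median log2 change was -0.20 for the 16 members with a match and -0.18 for the 25 with a listed promoter and no match. A match is a run of letters and not a measured binding site.

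The origin licensing genes were lower throughout: all 5 had R206H libraries below every wild-type library and an unadjusted p under 0.05, with a median log2 change of -0.25. Orc1, the large ATPase subunit of the origin recognition complex (ENSMUSG00000028587, GRCm38 chromosome 4, 108579423 to 108614833), had 10.3, 8.32 and 9 TPM in R206H libraries 1, 2 and 3, against 12.8, 12.1 and 12.3 TPM in wild-type libraries 1, 2 and 3. The groups did not overlap, and the R206H mean was 0.744 times the wild-type mean (log2 change -0.39, SE 0.104, limma adjusted p = 0.0804). Of the exon bases of Orc1, 10.8% are shared with Gm12743. Orc6, the smallest subunit and the most abundant licensing RNA here, had 47.7, 49.4 and 45.9 TPM in R206H libraries 1, 2 and 3, against 50.3, 61.8 and 58.6 TPM in wild-type libraries 1, 2 and 3. Its groups did not overlap, though wild-type library 1 lay close to the R206H values (log2 change -0.25, SE 0.0856, limma adjusted p = 0.135). Orc2, a core subunit, had a log2 change of -0.34, and 29.8% of its exon bases are shared with Nif3l1, so its level is uncertain. Cdc6 and Cdt1, the factors that help to load the helicase ring, had log2 changes of -0.22 and -0.25 (limma adjusted p = 0.114 and 0.158). Cdt1 was closest to overlap in R206H library 1, at 44.5 TPM against a lowest wild-type value of 45 TPM.

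Of the 12 helicase genes, all were lower in mean, 10 did not overlap and had an unadjusted p under 0.05, and none passed after adjustment; voom called 3. The 6 ring subunits, Mcm2 to Mcm7, lay within a narrow range, with log2 changes from -0.24 to -0.14. Mcm3 (ENSMUSG00000041859, GRCm38 chromosome 1, 20802968 to 20820312) had 104, 101 and 109 TPM in R206H libraries 1, 2 and 3, against 119.5, 126 and 119 TPM in wild-type libraries 1, 2 and 3. R206H reached at most 109 TPM and wild type at least 119 TPM (log2 change -0.22, SE 0.0536, limma adjusted p = 0.0728). Mcm5, the subunit next to Mcm2 at the gate of the ring, had 98.8, 90.4 and 92.9 TPM in R206H libraries 1, 2 and 3, against 107, 111 and 110.4 TPM in wild-type libraries 1, 2 and 3. It averaged 94.1 ± 4.32 TPM in R206H against 109.6 ± 2.4 TPM in wild type (SD, n = 3 each), with a log2 change of -0.22 (SE 0.055, limma adjusted p = 0.0752). Mcm6, whose printed stretch carries 3 E2F-type matches, had 109, 105 and 97.8 TPM in R206H libraries 1, 2 and 3, against 115, 125 and 125 TPM in wild-type libraries 1, 2 and 3. Its R206H library 3 was lowest and its groups did not overlap (log2 change -0.23, SE 0.0638, limma adjusted p = 0.0912). Mcm2, Mcm4 and Mcm7 had log2 changes of -0.23, -0.14 and -0.24. Of the exon bases of Mcm7, 12.6% are shared with other genes, Cops6 and Ap4m1 among them. The ring subunits were present at similar levels per length: the highest was 1.40 ± 0.084 times the lowest in R206H and 1.37 ± 0.053 times in wild type (SD, n = 3 each), with overlapping groups.

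The factors that activate the ring gave similar values. Mcm10, which acts at the step of helicase activation, had 10.2, 10.6 and 10.6 TPM in R206H libraries 1, 2 and 3, against 12.5, 13.53 and 13.6 TPM in wild-type libraries 1, 2 and 3. All R206H values lay within 10.2 to 10.6 TPM, below the lowest wild-type value (log2 change -0.30, SE 0.0841, limma adjusted p = 0.0868). Cdc45, the helicase cofactor that joins the ring at firing origins (ENSMUSG00000000028, GRCm38 chromosome 16, 18780447 to 18811987), had 47.3, 43.1 and 43.4 TPM in R206H libraries 1, 2 and 3, against 51.8, 54.9 and 52 TPM in wild-type libraries 1, 2 and 3. R206H libraries 2 and 3 were close to each other and library 1 was highest, still below wild type (log2 change -0.24, SE 0.0635, limma adjusted p = 0.0802). Within the GINS complex, which completes the active helicase, Gins3 and Gins4 did not overlap, with log2 changes of -0.27 and -0.17. Gins1 and Gins2 overlapped, with log2 changes of -0.07 (95% interval -0.29 to 0.15) and -0.15 (-0.33 to 0.03). The 4 GINS RNAs differed widely in level, with Gins4 at 9.51 ± 0.287 times Gins3 in R206H and 8.72 ± 0.76 times in wild type (SD, n = 3 each). Of the exon bases of Gins2, 67.3% are shared with Gse1, so its level is uncertain.

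**Figure D2:**
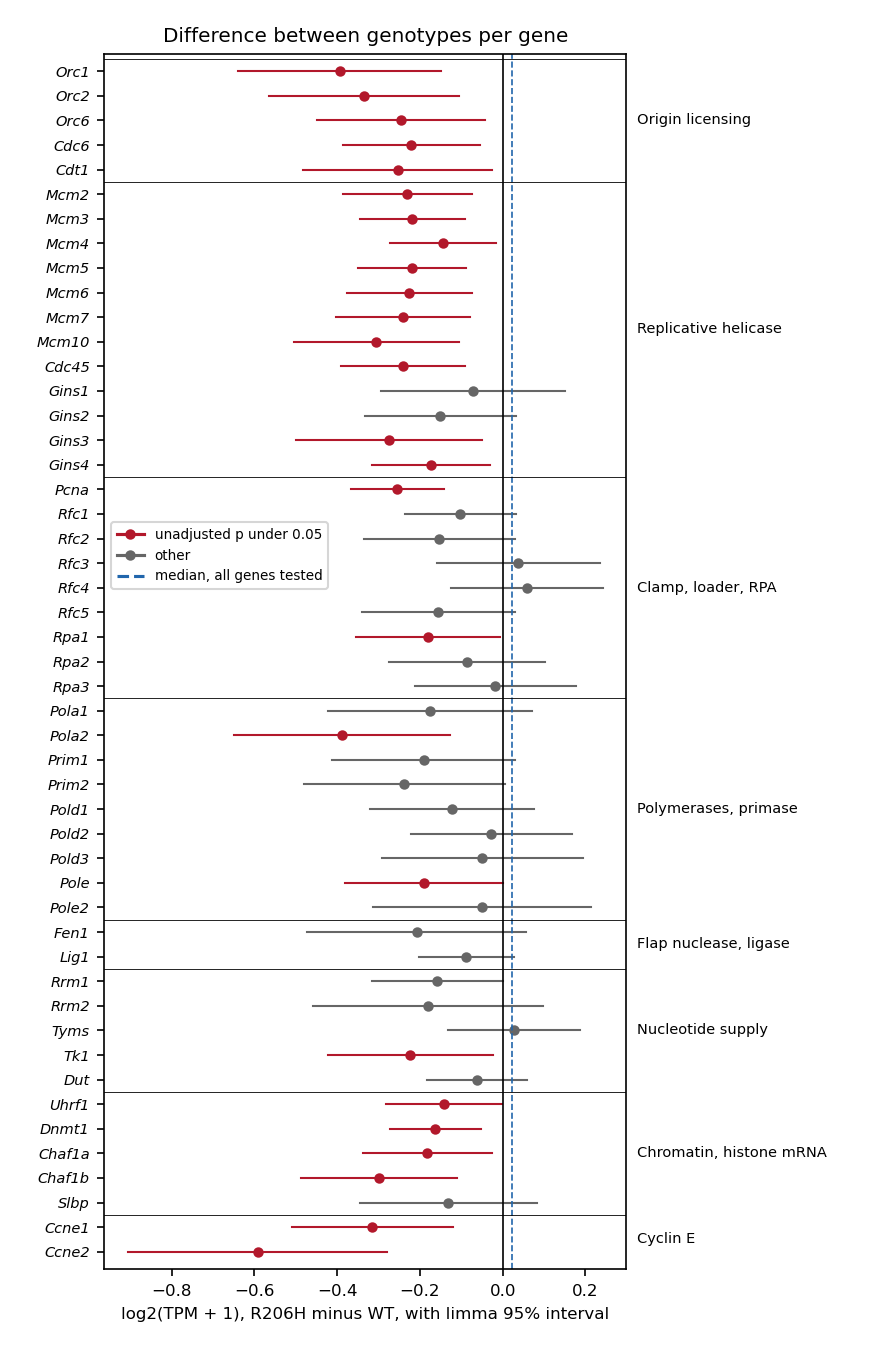
Points give log2(TPM + 1) in R206H minus wild type for each member with its 95% limma interval; red marks an unadjusted p under 0.05, the solid line 0 and the dashed line the median of all genes tested. Licensing, helicase and cyclin E genes lie mostly left of 0 with intervals that leave it out, while the clamp loader, polymerase delta and Tyms intervals span it.

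The clamp and its partners gave values that differed by subunit. Pcna, the sliding clamp that tethers polymerases (ENSMUSG00000027342, GRCm38 chromosome 2, 132249162 to 132253314), had 236, 243 and 236 TPM in R206H libraries 1, 2 and 3, against 275, 287 and 291 TPM in wild-type libraries 1, 2 and 3. It had the smallest p of the members: the groups did not overlap, R206H was 0.837 times wild type, and the adjusted p lay just above the threshold (log2 change -0.25, SE 0.0478, limma adjusted p = 0.0501). Over the alternatives fitted, the adjusted p of Pcna ran from 0.0178 to 0.183. The clamp loader genes Rfc1 to Rfc5 had log2 changes from -0.16 to 0.06, none at an unadjusted p under 0.05, and only Rfc1 did not overlap. Rfc3 and Rfc4 were 2 of the 3 members above wild type in mean, at 0.04 (-0.16 to 0.23) and 0.06 (-0.12 to 0.24). With quantile normalization Rfc3 was below 0, and without wild-type library 3 both were. Of the exon bases of Rfc2, Rfc4 and Rfc5, 15.1%, 12.7% and 10.7% are shared with Lat2, Eif4a2 and Wsb2. Of the subunits of RPA, which coats exposed DNA strands, Rpa1 had a log2 change of -0.18 (unadjusted p = 0.0445, limma adjusted p = 0.18), with overlapping groups. Rpa2 and Rpa3 had -0.09 and -0.02, with intervals of -0.27 to 0.10 and -0.21 to 0.18. The ratio of Pcna to Rfc1 was 5.75 ± 0.211 in R206H against 6.39 ± 0.208 in wild type (SD, n = 3 each), and this ratio did not overlap between the groups. The other ratios taken between members all overlapped, among them Rrm2 to Rrm1, Orc6 to Orc1, Pola2 to Pola1 and Pold2 to Pold3.

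All 9 polymerase and primase genes were below wild type in mean, but only Pola2 and Pole had an unadjusted p under 0.05. Pola2, the second subunit of the priming polymerase alpha (ENSMUSG00000024833, GRCm38 chromosome 19, 5940542 to 5964202), had 43.2, 33 and 36.2 TPM in R206H libraries 1, 2 and 3, against 50.3, 44.7 and 52.4 TPM in wild-type libraries 1, 2 and 3. The groups did not overlap, and R206H library 1 lay near wild-type library 2 (log2 change -0.39, SE 0.11, limma adjusted p = 0.0923). Its adjusted p was 0.0457 without R206H library 1 and 0.0421 with voom, and 0.145 to 0.262 when each of the other 5 libraries was left out. Its catalytic partner Pola1 had a log2 change of -0.18, and the primase subunits Prim1 and Prim2 had -0.19 and -0.24. Pole, the leading strand polymerase, had -0.19, and its partner Pole2 had -0.05 with overlapping groups. Of polymerase delta, which makes the lagging strand, none of the 3 member subunits had an unadjusted p under 0.05. Pold2, the most abundant of these, had 93.4, 88.3 and 106 TPM in R206H libraries 1, 2 and 3, against 95.7, 104 and 93.3 TPM in wild-type libraries 1, 2 and 3. R206H library 3 was the highest of the 6 libraries, and the groups overlapped (log2 change -0.03, SE 0.0826, limma adjusted p = 0.864, 95% interval -0.22 to 0.17). Pold1 and Pold3 had log2 changes of -0.12 (-0.32 to 0.08) and -0.05 (-0.29 to 0.19).

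For finishing lagging strand fragments, Lig1, the DNA ligase, had 63.5, 64.3 and 64.4 TPM in R206H libraries 1, 2 and 3, against 67.4, 68.3 and 68.8 TPM in wild-type libraries 1, 2 and 3. These groups did not overlap, but the gap was small (log2 change -0.09, SE 0.0488, limma adjusted p = 0.3). Fen1, the flap nuclease that trims each fragment before ligation, had 14.5, 14.6 and 17.1 TPM in R206H libraries 1, 2 and 3, against 19, 15.7 and 19.2 TPM in wild-type libraries 1, 2 and 3. The groups overlapped (log2 change -0.21, SE 0.112, limma adjusted p = 0.287), and 84.2% of the exon bases of Fen1 are shared with Tmem258 and Gm10143, so its level is uncertain.

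Genes of nucleotide supply were mixed. Rrm2, the cell cycle regulated subunit of ribonucleotide reductase and the most abundant member, had 335, 333 and 314 TPM in R206H libraries 1, 2 and 3, against 308, 382 and 433 TPM in wild-type libraries 1, 2 and 3. Wild-type values spread widely, with library 1 below every R206H library, and the groups overlapped (log2 change -0.18, SE 0.118, limma adjusted p = 0.374). Rrm1, the large subunit, did not overlap and had a log2 change of -0.16 (unadjusted p = 0.0513, limma adjusted p = 0.195). Without wild-type library 1 the log2 change of Rrm2 was -0.31 (adjusted p = 0.0717), and without wild-type library 3 it was -0.07 (0.759). Tk1, the thymidine salvage kinase, had 42.1, 36.3 and 42.3 TPM in R206H libraries 1, 2 and 3, against 43.6, 49.1 and 48.6 TPM in wild-type libraries 1, 2 and 3. Its groups did not overlap, with R206H library 3 closest to wild-type library 1 (log2 change -0.22, SE 0.0844, limma adjusted p = 0.157). Tyms, which makes thymidylate from scratch, was the third member above wild type in mean, with a log2 change of 0.03 (95% interval -0.13 to 0.19), and below 0 with quantile normalization. Dut, which removes dUTP, had -0.06 (-0.18 to 0.06).

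Genes that copy chromatin and DNA methylation were lower in all 5 cases in mean, 4 of them without overlap and at an unadjusted p under 0.05. Dnmt1, the maintenance DNA methyltransferase and the most abundant of these, had 123, 123 and 122 TPM in R206H libraries 1, 2 and 3, against 136, 135 and 141 TPM in wild-type libraries 1, 2 and 3. Each group was tight and the groups did not overlap (log2 change -0.16, SE 0.0466, limma adjusted p = 0.0932). Uhrf1, which brings Dnmt1 to newly copied DNA, had a log2 change of -0.14, and the ratio of Uhrf1 to Dnmt1 was 0.861 ± 0.017 in R206H and 0.849 ± 0.0345 in wild type (SD, n = 3 each). Chaf1b, a subunit of the assembly factor that places histones on new DNA, had 17.9, 16.4 and 18.7 TPM in R206H libraries 1, 2 and 3, against 21.2, 21.8 and 22.8 TPM in wild-type libraries 1, 2 and 3. R206H was 0.805 times wild type, and the groups did not overlap (log2 change -0.30, SE 0.0799, limma adjusted p = 0.0834). Its partner Chaf1a had -0.18, and 52.5% of its exon bases are shared with Ubxn6. Slbp, which binds the stem-loop of histone mRNA, overlapped between the groups at -0.13 (-0.35 to 0.08).

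Cyclin E, the partner of the kinase Cdk2 at entry into S phase, held the member with the largest difference. Ccne2 (ENSMUSG00000028212, GRCm38 chromosome 4, 11191351 to 11204779) had 17.7, 19.9 and 15.2 TPM in R206H libraries 1, 2 and 3, against 22.8, 29 and 29.3 TPM in wild-type libraries 1, 2 and 3. Every R206H value lay below every wild-type value, and R206H was 0.65 times wild type (log2 change -0.59, SE 0.133, limma adjusted p = 0.0638). Of its exon bases, 17.4% are shared with Ints8. Ccne1, the paralogous gene (ENSMUSG00000002068, GRCm38 chromosome 7, 38097984 to 38107534), had 82.1, 74.5 and 66.3 TPM in R206H libraries 1, 2 and 3, against 89.4, 92.9 and 94.7 TPM in wild-type libraries 1, 2 and 3. R206H library 3 was lowest and the groups did not overlap (log2 change -0.31, SE 0.0828, limma adjusted p = 0.0804). Both were called by voom, with adjusted p = 0.0285 for Ccne2 and 0.0442 for Ccne1. Over all alternatives fitted, the adjusted p ran from 0.0243 to 0.201 for Ccne2 and from 0.029 to 0.235 for Ccne1. The ratio of Ccne1 to Ccne2 was 4.25 ± 0.46 in R206H against 3.45 ± 0.406 in wild type (SD, n = 3 each), with overlapping groups. Beside them, Cdk2 itself had a log2 change of -0.11 (limma adjusted p = 0.491).

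**Figure D3:**
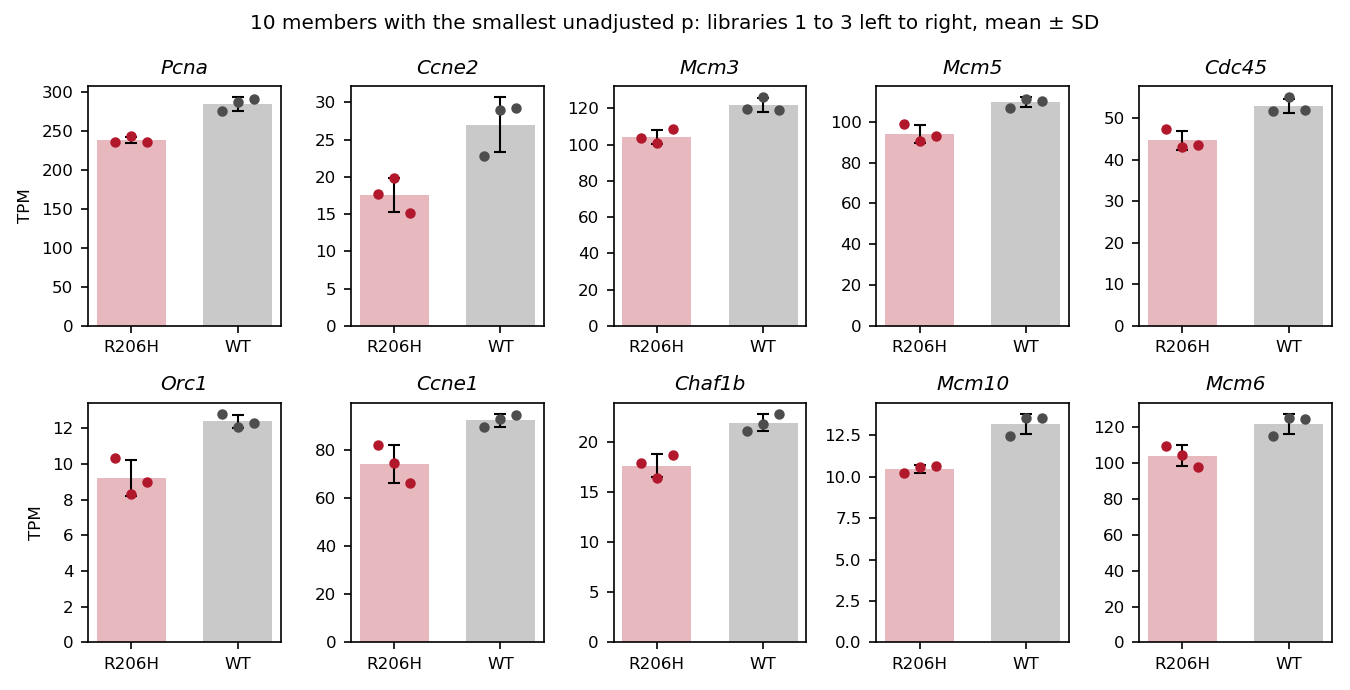
Bars give mean TPM with SD for the 10 members with the smallest unadjusted p, R206H left of wild type in each panel, and points give libraries 1 to 3 from left to right. No panel has an R206H point above a wild-type point; Pcna stands at 238 against 284 TPM and Ccne2 at 17.6 against 27 TPM.

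Other genes of DNA replication were read from a separate list of 42, of which 41 were tested. None passed the adjusted threshold with limma, 11 were lower and 1 higher at an unadjusted p under 0.05, and voom called 3 lower, Rif1 and Hells among them. Their median log2 change was -0.12, against -0.18 for the 49 members and 0.02 for all genes. Of the 41, 34 were below 0. All R206H libraries lay below all wild-type libraries for 13 and above them for 1, against 15% and 17.9% of genes tested. Gmnn, the inhibitor of Cdt1, had a log2 change of -0.19, and Cdc7, the kinase that phosphorylates the Mcm ring, had -0.30. Rif1, which sets the timing of origin firing, had -0.27. The higher gene was Pold4, the small subunit of polymerase delta, at 0.27 (limma adjusted p = 0.191).

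Other parts of the cell cycle were set beside the members in the same libraries. Over all 14818 genes tested, 2130 were higher and 1731 lower at an unadjusted p under 0.05. After adjustment limma called 186 higher and 117 lower. Voom, on 14785 genes, called 682 higher and 603 lower. Of 30 genes of G2 and mitosis, 11 were lower and 2 higher at an unadjusted p under 0.05 and none passed after adjustment; voom called 1 lower, Birc5. Their median was -0.12, and 26 of the 30 were below 0. For 17 of them all R206H libraries lay below all wild-type libraries, where this held for 15% of genes tested. The opposite pattern held for 2, against 17.9% of genes tested. Birc5, which encodes the survivin subunit of the chromosomal passenger complex, had 65.3, 56.3 and 59.8 TPM in R206H libraries 1, 2 and 3, against 73.6, 75.8 and 76.1 TPM in wild-type libraries 1, 2 and 3, without overlap (log2 change -0.31, SE 0.0671, limma adjusted p = 0.0609). Pttg1, the securin gene, averaged 24.4 ± 0.581 TPM in R206H against 19.6 ± 1.46 TPM in wild type (SD, n = 3 each), also without overlap (log2 change 0.31, SE 0.0792, limma adjusted p = 0.0776). Of 19 E2F, pocket protein, cyclin and kinase genes, 6 were lower and 3 higher at an unadjusted p under 0.05, and voom called 2 lower, E2f8 and Cdk6. With limma 1 passed and was lower, E2f8, an atypical E2F that represses S-phase genes, at 19.9, 17.7 and 15.4 TPM in R206H libraries 1, 2 and 3, against 25.8, 26.9 and 27 TPM in wild-type libraries 1, 2 and 3. The groups did not overlap (log2 change -0.57, SE 0.0993, limma adjusted p = 0.0476). Over the 19 genes the median was -0.12, and the D-type cyclin gene Ccnd2 had a log2 change of 0.26 (limma adjusted p = 0.0706, voom adjusted p = 0.0512). E2f1, an activating E2F, had a log2 change of -0.12 (limma adjusted p = 0.241). Of 9 kinase inhibitor and p53 genes, 6 were higher and 2 lower at an unadjusted p under 0.05, with a median of 0.33, and voom called 3 higher and 1 lower. The limma test called 1 higher, Cdkn2b, which encodes an inhibitor of Cdk4 and Cdk6. It had 145, 146 and 179 TPM in R206H libraries 1, 2 and 3, against 109, 91.5 and 95.5 TPM in wild-type libraries 1, 2 and 3 (log2 change 0.66, SE 0.103, limma adjusted p = 0.0462). Neither call held when R206H library 2, R206H library 3, wild-type library 2 or wild-type library 3 was left out, with adjusted p of 0.0832 to 0.162 for Cdkn2b and 0.0922 to 0.167 for E2f8, which was also 0.059 without wild-type library 1. Nor did they hold with no filter on low values (0.108 for Cdkn2b and 0.11 for E2f8) or in limma without the trend (0.0868 for both). E2f8 was also just above the threshold with a pseudocount of 0.1 (0.0504) and with quantile normalization (0.0517). The inhibitor gene Cdkn1a averaged 635 ± 12 TPM in R206H against 533 ± 19.3 TPM in wild type (SD, n = 3 each), with a log2 change of 0.25 (limma adjusted p = 0.0542, voom adjusted p = 0.0406). Voom also called Cdkn2a higher, at a limma log2 change of 0.74 (limma adjusted p = 0.0618, voom adjusted p = 0.0305), and Cdkn1c lower, at -0.57 (0.0744 and 0.0366). Cdkn1b, Cdkn2c and Cdkn2d had log2 changes of 0.35, 0.34 and 0.33.

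Library medians were taken to set the members beside these lists. The median of each member's deviation from its mean over the 6 libraries was -0.04, -0.10 and -0.11 in R206H libraries 1, 2 and 3, against 0.02, 0.12 and 0.15 in wild-type libraries 1, 2 and 3. For G2 and mitosis genes the medians were -0.04, -0.05 and -0.08 in R206H libraries 1, 2 and 3, against 0.01, 0.11 and 0.07 in wild-type libraries 1, 2 and 3. For epithelial markers they were -0.08, -0.66 and -0.81 in R206H libraries 1, 2 and 3, against 1.22, 0.17 and 0.56 in wild-type libraries 1, 2 and 3. R206H library 1 had the highest R206H value in both the member and the epithelial medians, while wild-type library 1 was lowest of wild type for the members and highest for the epithelial markers. Fibroblast markers had medians of 0.12, 0.32 and 0.69 in R206H libraries 1, 2 and 3, against -0.06, -0.38 and -0.54 in wild-type libraries 1, 2 and 3. Over the 6 libraries the fibroblast medians ran in the reverse order of the member medians, and the part of this in the members' values was not tested. Of the 49 members, 18 had their lowest value in R206H library 2, 18 in R206H library 3 and 8 in R206H library 1. The highest value lay in wild-type library 3 for 23 members and in wild-type library 2 for 22.

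**Figure D4:**
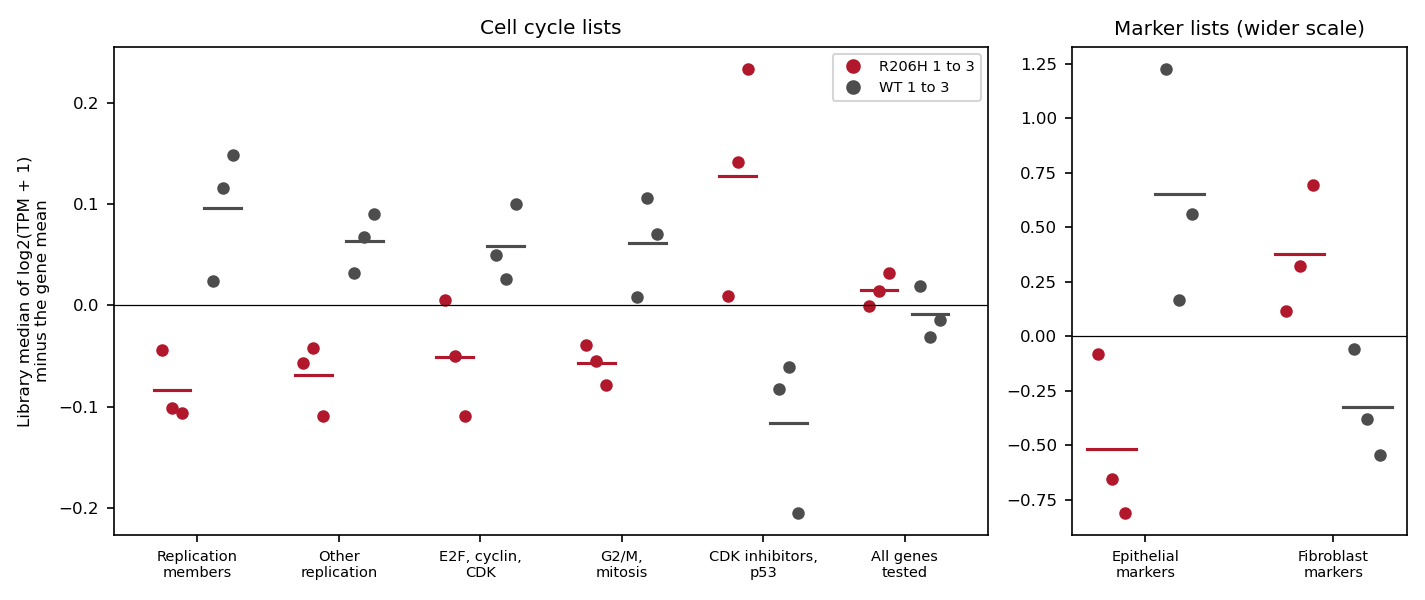
Points give, for each library, the median over a list's tested genes of log2(TPM + 1) minus the gene's mean over the 6 libraries, with R206H left of wild type in each pair and bars at the mean of 3. The members run from -0.11 to -0.04 in R206H and from 0.02 to 0.15 in wild type; epithelial and fibroblast markers are on a wider scale at right.

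Of the members, 7 have another tested gene starting within 1000 bp on the opposite strand, which holds for 9.94% of tested genes with an annotation. Each pair lies on either side of a short shared stretch, and differences within pairs were not tested. The partners of Mcm4 (Prkdc, 466 bp away), Gins1 (Abhd12), Rpa1 (Smyd4) and Rpa3 (Umad1) were above 0 in log2 change, at 0.13, 0.09, 0.11 and 0.25. Those of Orc1 (Prpf38a, 87 bp away), Pole (Pxmp2) and Prim2 (1700001G17Rik) were below 0, at -0.06, -0.61 and -0.62. All 7 members were below 0, and all 7 partners overlapped between the groups. None of the 7 partners passed the adjusted threshold with limma, and 1, Pxmp2 beside Pole, had an unadjusted p under 0.05.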

How the data were processed

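RNA depleted of ribosomal RNA was read as 150 bp pairs from 3 R206H and 3 wild-type libraries, per the labels' protocols. The authors deposited TPM, and each library sums to 1000000. Per the submitters' processing notes, Trimmomatic, STAR, featureCounts, Subread and DESeq2 were used with builds mm10 and GRCm38; the sources used here give no version, annotation or strand setting, so reads of overlapping genes may be lost or shared. The test took every gene reaching TPM 1 in 3 libraries or more. It used log2(TPM + 1) values and limma 3.58.1 under R 4.3.3 (lmFit, eBayes with trend, no covariate, two-sided), with Benjamini-Hochberg adjustment over all 14818 genes at 0.05; SDs have n = 3. This scale understates changes of weakly expressed genes. Reads were rebuilt with exon lengths from GENCODE M21; values under 100 reads were whole within 0.05 in 91.1% to 91.5% of cases. Python 3.11.15, pandas 2.3.3 and matplotlib 3.10.9 were used. limma was checked on simulated reads with changes of 1.5-fold to 8-fold. It called 42 of 50 genes changed 1.5-fold and 14 of 14326 unchanged genes. Smaller changes, such as those of most members, were not simulated, so the check does not cover them. The members and lists were chosen with earlier results of these data known. Full values were given for the 10 members with the smallest p and, per role, those with the smallest p and highest mean; in the other lists, full values or the mean went to those called or with the smallest p where they are reported, and log2 changes to others. A gene that this rule picks in the list of other replication genes is not reported here. Pold4, Hells, Cdk2, Cdk6, E2f1, the inhibitor genes other than Cdkn2b and Cdkn1a, and the 7 partner genes were named after their values were seen. Alternatives were other pseudocounts, filters, scalings, weights, a replicate block, voom and each library left out.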

Additional observations from a re-analysis of the deposited data

How the results depend on the processing

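Across 17 alternative fits, the sign of the log2 change matched the one reported in 821 of 833 member and fit pairs, and 42 members were below 0 in every fit. The members' median stayed between -0.23 and -0.14. The number of members called with limma was 0 as reported, 2 with a filter at TPM 5 (Pcna and Ccne2), 16 with library weights, 7 with voom and 15 at an adjusted p under 0.10; leaving out each library in turn gave 0 to 2. At an unadjusted p under 0.05 there were 17 to 31 members, all lower, when each library was left out, the lowest without wild-type library 3. The share of all genes tested that were lower at that p ran from 7.6% without wild-type library 3 to 11.8% without R206H library 1. The log2 change of Pold2 ran from -0.102 to 0.0305 when each library was left out, above 0 without R206H library 2 and, at 0.02, without wild-type library 2. Over all genes, 303 were called as reported, 129 with a pseudocount of 0.1, 2 without a filter, 587 with a filter at TPM 5, 200 with quantile normalization, 27 without the trend, 1906 with library weights, 1285 with voom and 1787 at an adjusted p under 0.10. Leaving out each library in turn gave 0 to 722. Same-numbered libraries of both genotypes had correlations of deviations of 0.018, 0.06 and -0.028, and differently numbered ones of -0.0518 to 0.0297. The labels give no embryo or litter, so whether replicate numbers mark pairs is unknown. With so few libraries these correlations cannot decide it. With the replicate number as a block, 0 genes and 0 members were called. In that fit 19 members were lower at an unadjusted p under 0.05, where 10% of all genes tested were. The cause of these differences was not tested. Rescaling moved the median of all genes by under 0.1 on the log2 scale. The narrowest 95% interval of a member's log2 change was 0.22 wide.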
